A study of Mus musculus with 8 samples.

Results

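The 5 mitochondrial mRNAs described here are mt-Nd1, mt-Nd2, mt-Nd5 and mt-Cytb, encoded on the plus strand, and mt-Nd6, encoded on the minus strand. They were chosen, out of 13 mRNAs among 37 mitochondrial genes, for their mappable coverage. SRSF3-GFP iCLIP cDNAs were found from one end region of each gene to the other, and most of their sequence does not recur in nuclear transcripts. Single nucleotides were covered thinly, at 10.8% to 23.5% of each gene in replicate 1 and 20% to 42.6% in replicate 2. That coverage is the reason for the choice, so the levels are given as a description. mt-Co1 and mt-Nd4 were not chosen, although the level of mt-Co1 was above that of mt-Nd6. Of their positions, 63.6% and 62.8% have copies in nuclear transcripts. The members were all positions of the deposited tracks within the annotated genes, with the strand read from the sign of the score. Replicate 1 listed 999 such sense positions, out of 2855 on the mitochondrial genome and 769652 in all. Replicate 2 listed 1925, out of 4768 and 2093525, and the merged track 2588, out of 6360 and 3846902.

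The series has 8 mouse samples, of which the 2 iCLIP libraries are used. Both came from neonatal cardiomyocytes of C57BL/6 mice at stage P0-1, which received modified mRNA for SRSF3 fused to green fluorescent protein and were crosslinked with UV light 48 h later. The tagged protein was thus supplied from outside, on top of the cells' own SRSF3, and no untransfected or control immunoprecipitation was analysed here. The 3 SRSF3flox/flox;alphaMHC-CreERT2 and 3 alphaMHC-CreERT2 adult hearts of the series are not analysed here. Nothing in the labels shows that replicates 1 and 2 were grown as separate cultures, and tests between them therefore describe a pair of libraries whose spread may be technical. An annotation of nuclear genes on mm9 was not used here, so the cell type was not checked against its markers.

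In iCLIP, reverse transcription stops next to the nucleotide that was crosslinked to the protein, and each cDNA marks 1 such position. Replicate 1 held 815414 cDNAs and replicate 2 held 2253688. The merged track contains 3 more libraries. Subtracting the replicates from it left 1138453 cDNAs, referred to as the other libraries. The sample labels do not describe these 3 libraries. Their protein, cells and role, as replicates or as controls, are therefore not known here. Levels are CPM (a library's cDNAs scaled to a common total) per kb of gene, which compare genes per length. Intervals are 95% Wilson intervals, which cover counting error only. Less signal cannot be told apart from fewer cells of a type or less RNA per cell.

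Mitochondrial DNA is transcribed from both strands into long precursor RNAs. Transfer RNAs that lie between the mRNAs are cut out and so release most mRNAs, most of which have almost no untranslated sequence. Between mt-Nd5 and mt-Cytb, however, no transfer RNA is annotated on the plus strand. mt-Nd1, mt-Nd2, mt-Nd5 and mt-Nd6 encode subunits of NADH dehydrogenase (complex I), and mt-Cytb encodes cytochrome b of complex III. Both complexes pump protons in the respiratory chain, on which the beating heart depends. SRSF3 is a member of the SR protein family known for its work on nuclear pre-mRNA and in mRNA export. The minus strand carries mt-Nd6 as its only mRNA, and its RNA is otherwise largely noncoding.

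The surroundings of the strongest position of each mRNA are shown here as RNA-sense sequence with T for uridine, to show which nucleotides nearby both replicates listed. Each line gives 41 nt around the position with the highest count in the lower replicate, 5′ to 3′, and capitals mark the nucleotides with a cDNA in both replicates. The 2 last lines show the same for the strands opposite mt-Nd6 and mt-Nd5, described further below. Letters come from the GRCm38 reference transcripts and coordinates from the mm9 tracks, so they depend on the numbering check given with the base composition.
mt-Nd1, chrM:3608-3648, plus strand: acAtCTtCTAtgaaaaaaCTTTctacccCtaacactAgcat
mt-Nd2, chrM:4100-4140, plus strand: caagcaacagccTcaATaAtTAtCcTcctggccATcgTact
mt-Nd5, chrM:11747-11787, plus strand: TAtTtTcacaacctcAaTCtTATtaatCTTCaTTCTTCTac
mt-Cytb, chrM:14951-14991, plus strand: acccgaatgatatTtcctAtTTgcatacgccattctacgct
mt-Nd6, chrM:13882-13922, minus strand: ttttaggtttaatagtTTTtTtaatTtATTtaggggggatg
Opposite mt-Nd6, chrM:13643-13683, plus strand: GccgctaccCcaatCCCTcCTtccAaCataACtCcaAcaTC
Opposite mt-Nd5, chrM:13320-13360, minus strand: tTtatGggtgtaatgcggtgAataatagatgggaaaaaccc
Of these 41 nt, both replicates covered 21 at mt-Nd5, 12 at mt-Nd1, 11 at mt-Nd2, 8 at mt-Nd6 and 4 at mt-Cytb. The windows held 33 and 102 cDNAs at mt-Nd5 in replicates 1 and 2, 31 and 78 at mt-Nd2, 28 and 53 at mt-Nd1, 17 and 33 at mt-Nd6 and 10 and 24 at mt-Cytb. The window opposite mt-Nd6 held 29 and 82, and that opposite mt-Nd5 14 and 21. The centre of the latter, position 13340, held only 1 and 4 cDNAs.

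The 5 mRNAs held 1297 sense cDNAs in replicate 1, 18.8% of the mitochondrial cDNAs, and 3527 in replicate 2, 21.9%. The order of their levels was the same in both replicates. mt-Nd2 (M, 3914 to 4951) stood highest at 415 and 395 CPM per kb for replicates 1 and 2, from 351 and 924 cDNAs. mt-Nd5 (11742 to 13565) had 318 and 320 CPM per kb, from 473 and 1315 cDNAs. mt-Nd1 (2751 to 3707) had 255 and 287, from 199 and 619 cDNAs. These 3 complex I mRNAs did not overlap in the replicate values. mt-Cytb (14145 to 15288) had 226 and 206 CPM per kb, from 211 and 530 cDNAs. mt-Nd6 (13552 to 14070, minus strand) had 149 and 119, from 63 and 139 cDNAs, below each of the 4 plus-strand mRNAs in both replicates. Every gap between neighbours in this order was wider than the SDs of either gene, whose largest was 22.6 CPM per kb for mt-Nd1, yet 2 values per gene give only a rough spread.

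**Figure D1:**
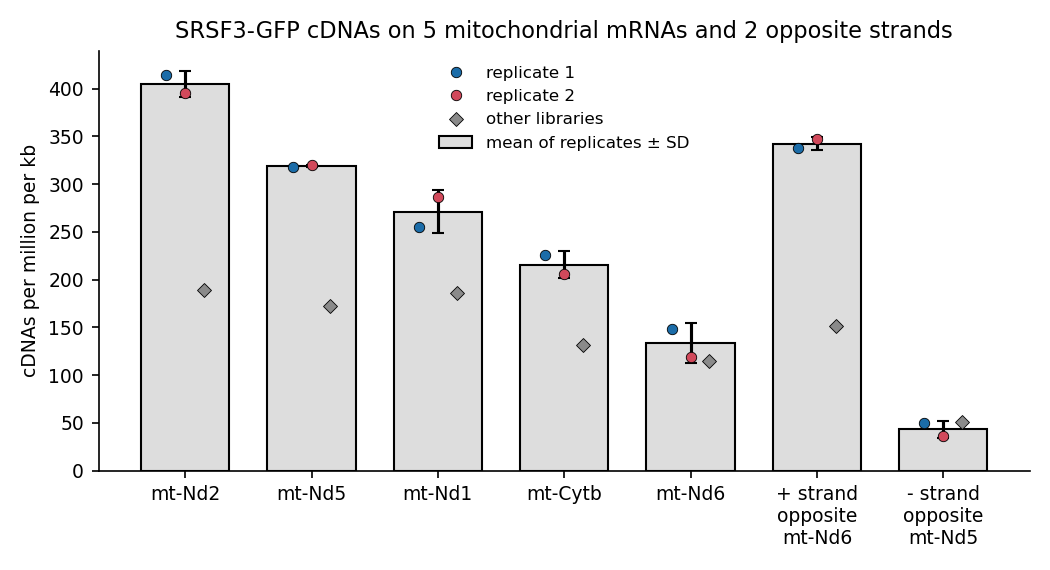
Sense CPM per kb (vertical axis) for the 5 mRNAs and for the strands opposite mt-Nd6 and mt-Nd5. Bars and error bars are the mean and SD of the 2 replicates, circles are replicates 1 and 2, and diamonds are the other libraries of the merged track. The sample labels do not describe those other libraries. mt-Nd2 stands highest at 415 and 395, mt-Nd6 lowest of the mRNAs at 149 and 119, and the plus strand opposite mt-Nd6 reaches the level of mt-Nd5.

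In the other libraries the 4 plus-strand mRNAs were lower than in both replicates. They had 190 CPM per kb at mt-Nd2, 186 at mt-Nd1, 173 at mt-Nd5 and 131 at mt-Cytb. mt-Nd6 had 115 there, against 119 in the lower replicate. mt-Nd2, mt-Nd1 and mt-Nd5 lay close together there, and mt-Nd1 stood above mt-Nd5, unlike in the replicates. mt-Nd2 was 2.79 and 3.32 times mt-Nd6 in the replicates and 1.65 times in the other libraries. These are sums over 3 libraries with no spread of their own, so the difference was not tested.

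No difference in level between the replicates was detected for any of the 5 mRNAs. The log2 ratio of replicate 1 to replicate 2 was 0.07 for mt-Nd2 (95% interval -0.11 to 0.25), -0.01 for mt-Nd5 (-0.16 to 0.14) and -0.17 for mt-Nd1 (-0.41 to 0.06). It was 0.14 for mt-Cytb (-0.10 to 0.37) and 0.33 for mt-Nd6 (-0.13 to 0.76). Adjusted p-values of the exact binomial test were 0.911, 1, 0.463, 0.600 and 0.463. The test ran over 27 gene strands with at least 10 cDNAs, of which 2, or 7.41%, were called, both ribosomal RNAs. The 5 sense strands and 4 of the 5 antisense strands passed that minimum, and none of these 9 had an unadjusted p under 0.05.

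The other mitochondrial mRNAs set the frame. Of the 7 complex I mRNAs, mt-Nd1, mt-Nd2, mt-Nd5 and mt-Nd6 are described here, mt-Nd4 was covered in part at 126 and 124 CPM per kb, and mt-Nd3 and mt-Nd4l held no cDNA in replicate 1. Replicate 2 held 2 at mt-Nd3 and 0 at mt-Nd4l. If all their positions could be counted, a count of 0 would allow up to 10.6 CPM per kb at mt-Nd3 and 12.4 at mt-Nd4l in replicate 1. mt-Cytb is the only mitochondrial gene of complex III. Of complex IV, mt-Co1 had 170 and 171 CPM per kb, and mt-Co2 and mt-Co3 had no cDNA in either replicate. mt-Atp6 and mt-Atp8 of complex V had none either. At mt-Co2, mt-Atp6, mt-Co3, mt-Nd3 and mt-Nd4l, 91.6% to 100% of the positions were followed by 30 nt that also occur in a nuclear transcript, where a read may have several matches. The limits given for a count of 0 may not hold at such positions. mt-Atp8 had such copies at 21.6% of its positions only. With no cDNA its level could reach 18.0 CPM per kb (replicate 1) and 6.53 (replicate 2), if its positions can be counted. Copies outside transcripts were not searched.

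Among the 5 mRNAs such copies were fewer but went with low signal. mt-Nd1 had none. The share was 13.7% at mt-Nd2, 17.2% at mt-Nd5, 9.27% at mt-Cytb and 7.90% at mt-Nd6. At mt-Nd5 the copied positions held 82.0 and 89.0 CPM per kb and the other positions 367 and 368. At mt-Nd2 these were 95 and 81.2 against 465 and 445, and at mt-Cytb 104 and 79.5 against 239 and 218. mt-Nd6 had 3 cDNAs in replicate 1 and 1 in replicate 2 on its 41 copied positions. The sources used here do not state how the authors treated reads with several matches, and the part of that step in the low values was not tested. With copied positions left out, mt-Nd2 had 455 CPM per kb and mt-Nd5 368 on average over the replicates.

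Along mt-Nd1, which had no copied position, the cDNAs gathered in the 3′ part. Nucleotides 701 to 900 of the gene (M, 3451 to 3650) make up 20.9% of its length. They held 104 of 199 cDNAs in replicate 1, 52.3% (45.3% to 59.1%), and 300 of 619 in replicate 2, 48.5% (44.5% to 52.4%). In the other libraries they held 96 of 203, 47.3% (40.5% to 54.1%). All 3 values were more than 2 times the share of length. The level there was 638 and 666 CPM per kb, against 154 and 187 in the rest of the gene. The stretch was chosen after the profile was seen, as were those named below for the other genes.

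The strongest positions of mt-Nd1 showed how thin the counts per nucleotide are. Position 3628 held 4 cDNAs in replicate 1, 6 in replicate 2 and 2 in the other libraries. Position 3605, in the same stretch, held 2, 9 and 3. Position 3063 held 2, 8 and 2 and lies upstream, at nucleotide 313 of the gene. The highest single count of replicate 1, 6 cDNAs, was 3.02% of the gene's total, and 77.6% of the covered positions had a single cDNA. Replicate 2 covered 34.5% of the nucleotides of mt-Nd1, and 59.2% of the 152 positions of replicate 1 recurred there.

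mt-Nd2 held more of its cDNAs in the 5′ part, with a further high stretch downstream. Its first 300 nt (3914 to 4213), free of copies, held 41.9% of the cDNAs in replicate 1 (36.8% to 47.1%) and 45.9% in replicate 2 (42.7% to 49.1%), on 28.9% of the length. The other libraries held 35.7% there (29.7% to 42.2%). The level of these 300 nt was 601 and 627 CPM per kb, and 234 in the other libraries. Nucleotides 601 to 700 (4514 to 4613) were about as high, at 687 and 590, and 299 in the other libraries. The last 238 nt (4714 to 4951) had 160 and 123 CPM per kb, against 491 and 476 in the rest of the gene. Of those 238 positions 105 were copied, and the others had 249 and 194 CPM per kb, still below the rest of the gene. Position 4120 was the strongest, with 4, 21 and 2 cDNAs in replicate 1, replicate 2 and the other libraries. Position 4401 held 3, 12 and 4, and position 3945 held 3, 8 and 2.

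mt-Nd5, the longest of the 5 at 1824 nt, began high. Its first 200 nt (11742 to 11941), with no copied position, held 21.1% of the cDNAs in replicate 1 (17.7% to 25%) and 23.0% in replicate 2 (20.8% to 25.4%), on 11.0% of the length. The other libraries held 17.8% (14.2% to 22.1%). The level there was 613 and 672 CPM per kb, against 282 and 277 in the rest. All 314 copied positions of the gene, at 82.0 and 89.0 CPM per kb, lie in that rest and lower its level. Over all positions without a copy, these 200 nt included, the level was 367 and 368. Position 11767 lies in this stretch, with 4, 9 and 2 cDNAs in replicate 1, replicate 2 and the other libraries. Position 11930 held 3, 9 and 0. Position 13326, near the 3′ end, also held 3, 9 and 0.

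mt-Cytb was low at its 5′ end, higher toward its 3′ end and low again in its last nucleotides. Its first 100 nt held 5 and 30 cDNAs, 61.3 and 133 CPM per kb, against 242 and 213 in the rest of the gene. Nucleotides 901 to 1100 (15045 to 15244) held 28.0% of the cDNAs in replicate 1 (22.3% to 34.4%) and 27.7% in replicate 2 (24.1% to 31.7%), on 17.5% of the length. The other libraries held 26.3% (20.3% to 33.4%). Nucleotides 1101 to 1144 held 1 and 3 cDNAs in replicates 1 and 2, 27.9 and 30.3 CPM per kb. Of these last positions 24 were copied, and the part of copies in the low level there was not tested. The leading positions were all in the 3′ part. Position 14971 held 3, 6 and 1 cDNAs, position 15060 held 4, 5 and 2, and position 15184 held 2, 5 and 2, in the order replicate 1, replicate 2 and other libraries.

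The 5′ end of mt-Nd6 was thinly covered and the next 100 nt held more. The first 100 nt of the gene (13971 to 14070) held 4 and 10 cDNAs. Nucleotides 101 to 200 (13871 to 13970) held 19 and 43, 30.2% (20.2% to 42.4%) and 30.9% (23.9% to 39.0%) of the gene's cDNAs on 19.3% of its length. The other libraries held 16 there, 23.5% (15.0% to 34.9%). Positions 13902, 13905 and 13897, the 3 strongest of the gene, lie within this stretch, at uridines capitalised in the sequence above. They held 3, 2 and 2 cDNAs in replicate 1 and 5, 4 and 3 in replicate 2.

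**Figure D2:**
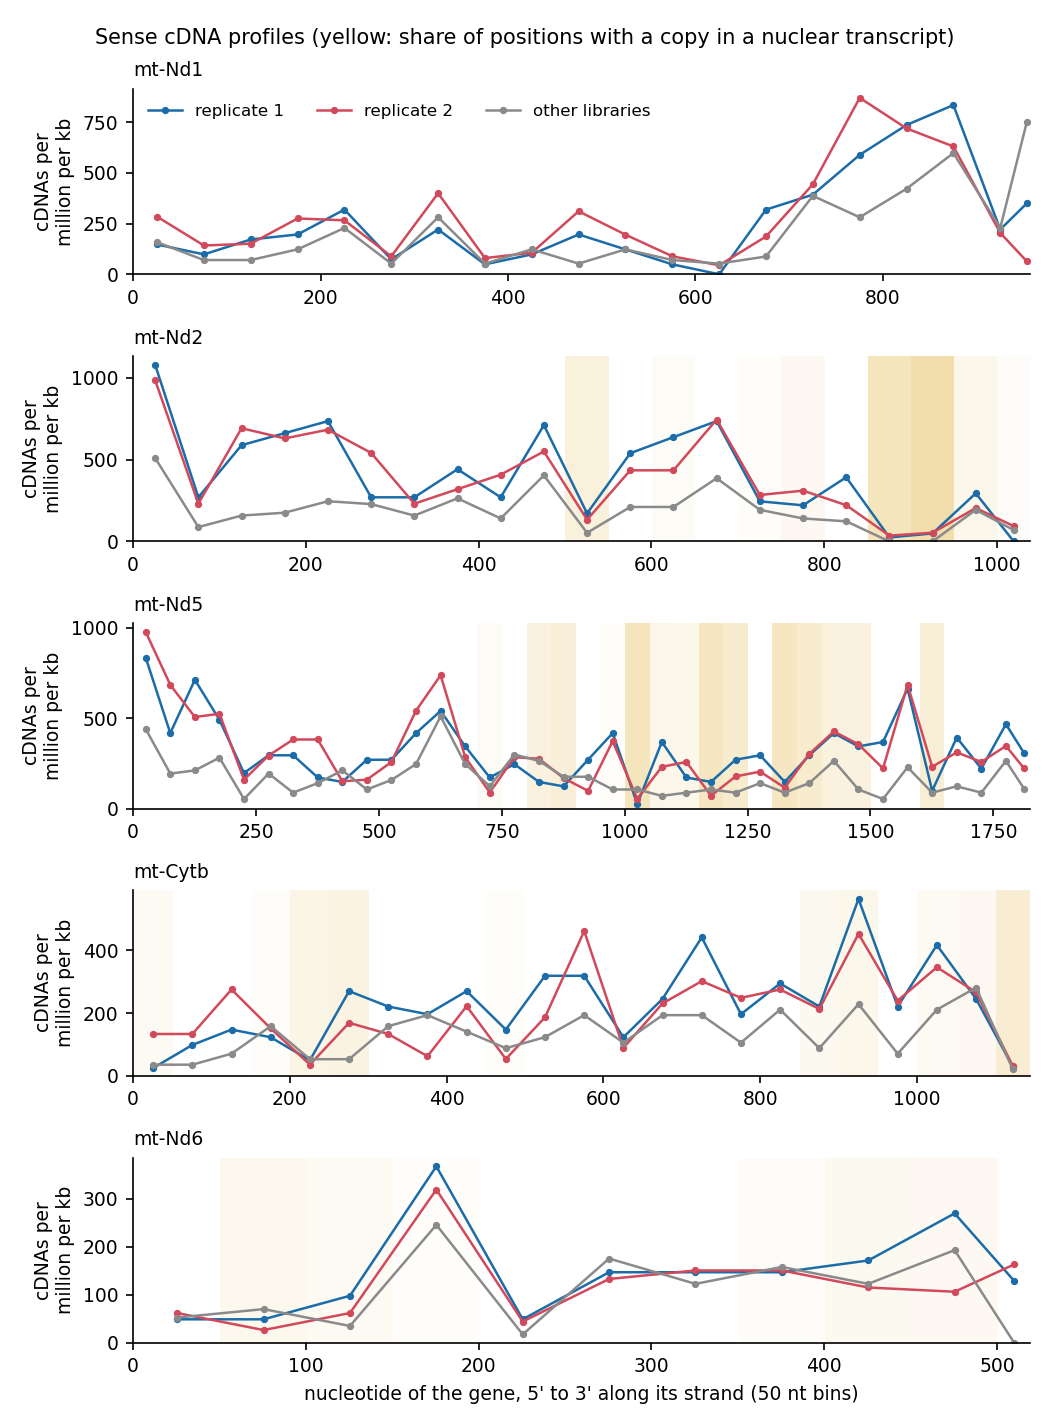
Sense CPM per kb (vertical axis) in 50 nt bins along each mRNA, 5′ to 3′ (horizontal axis), for replicate 1, replicate 2 and the other libraries. The last bin of each gene is shorter. Yellow shading deepens with the share of positions that have a copy in a nuclear transcript. In the replicates the highest bin of mt-Nd1 lies within nucleotides 701 to 900. That of mt-Nd5 is nucleotides 1 to 50 and that of mt-Nd6 is nucleotides 151 to 200.

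The placement within genes was alike in the replicates at the scale of 50 nt and loose at single nucleotides. Across 50 nt bins, Pearson's r between the replicates was 0.91 for mt-Nd2 (20 bins), 0.90 for mt-Nd1 (19), 0.87 for mt-Nd6 (10), 0.84 for mt-Nd5 (36) and 0.77 for mt-Cytb (22). Across nucleotides it was 0.37 to 0.46. Bins of a gene share sequence, mappability and base composition, so these values are descriptions. A chi-square test of bin counts by replicate gave adjusted p = 0.805 for mt-Nd1 and mt-Nd2, 0.668 for mt-Nd5, 0.739 for mt-Cytb and 0.991 for mt-Nd6. Of 11 mitochondrial genes tested, 1 was called, 9.09%, and it was mt-Rnr2, the large ribosomal RNA. None of the 5 had an unadjusted p under 0.05.

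Single stretches did not differ detectably either. Of 59 genomic bins of 100 nt that overlap the genes, 56 had at least 20 cDNAs and were tested with all 3252 such bins of the genome. In the genome 39 were called, 1.2%, and among the 56 none was called (exact binomial test, 0 with an unadjusted p under 0.05 against 7.56% of all bins, lowest adjusted p = 0.679). Log2 ratios of replicate 1 to replicate 2 in the 56 bins ran from -0.97 to 0.88, and 33 bins were higher in replicate 1. With bins of 200 nt 1 was called, M 2601 to 2800, of whose 212 and 432 cDNAs only 6 and 32 lay on mt-Nd1.

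Antisense cDNAs were rare over 3 of the plus-strand mRNAs and frequent over mt-Nd5. Opposite mt-Nd1 lay 2 of 201 cDNAs of both strands in replicate 1, 0.995% (0.273% to 3.55%), and 8 of 627 in replicate 2, 1.28% (0.648% to 2.5%). Opposite mt-Nd2 were 5 and 2 cDNAs, 1.40% (0.601% to 3.25%) and 0.216% (0.0593% to 0.784%). Opposite mt-Cytb were 1 and 13, 0.472% (0.0833% to 2.62%) and 2.39% (1.40% to 4.05%). Opposite mt-Nd5 were 74 and 155, 13.5% (10.9% to 16.7%) and 10.5% (9.08% to 12.2%), of which 73 and 150 lay beyond the end of mt-Nd6. The mt-Nd5 intervals do not overlap those of the other 3 genes in either replicate. The partly covered mt-Nd4, outside the 5, had 8 and 18 antisense cDNAs, 5.33% (2.73% to 10.2%) and 4.48% (2.85% to 6.97%). In the other libraries its share was 10.7% (6.07% to 18.1%). The partly covered mt-Co1 had 0 and 4, 0% and 0.668%. Opposite mt-Rnr1, the small ribosomal RNA with 1651 and 3722 sense cDNAs, there were 0 in both replicates, which allows a share of up to 0.182% and 0.0806%.

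**Figure D3:**
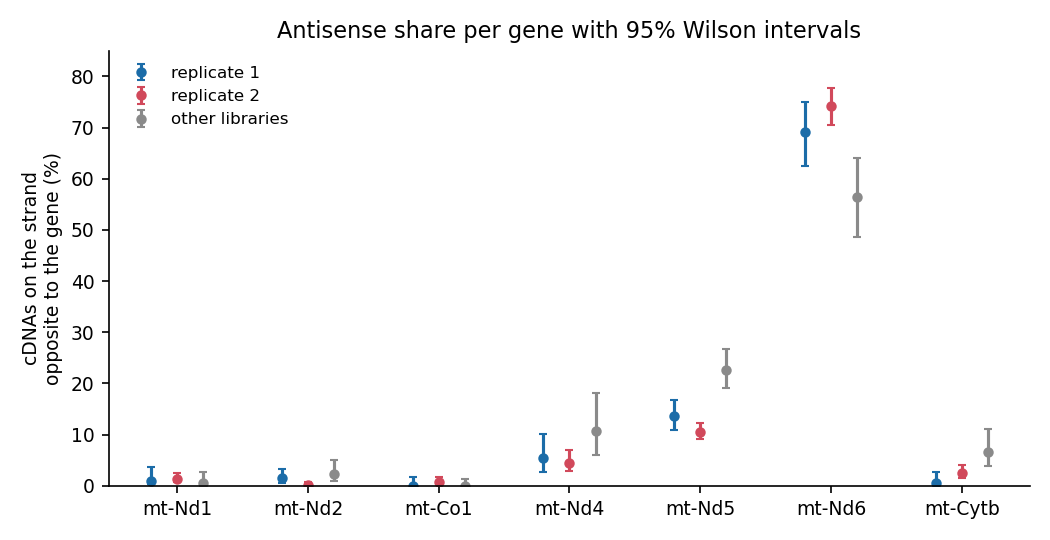
Share of cDNAs on the strand opposite to the gene (vertical axis, percent of the cDNAs of both strands) for the 5 mRNAs and the partly covered mt-Co1 and mt-Nd4, in map order. Points are replicate 1, replicate 2 and the other libraries, and bars are 95% Wilson intervals. The share is 13.5% and 10.5% at mt-Nd5 and 69.1% and 74.3% at mt-Nd6, and below 3% at mt-Nd1, mt-Nd2 and mt-Cytb in the replicates.

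No antisense share was called different between the replicates. Fisher's exact test over 22 mitochondrial genes with at least 10 cDNAs called 0, or 0%, and 1 had an unadjusted p under 0.05, mt-Nd2 (unadjusted p = 0.0202, adjusted p = 0.445, Fisher's exact test). For mt-Nd5 the adjusted p was 0.761, for mt-Nd6 and mt-Cytb 0.916 and for mt-Nd1 1 (Fisher's exact test). In the other libraries the shares were 22.6% at mt-Nd5 (19.1% to 26.7%), 6.56% at mt-Cytb (3.79% to 11.1%), 2.18% at mt-Nd2 and 0.490% at mt-Nd1. At mt-Nd5 that came from 105 antisense and 359 sense cDNAs, an antisense level of 50.6 CPM per kb beside 49.8 and 37.7 in the replicates, and a sense level of 173 beside 318 and 320.

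The minus-strand cDNAs opposite mt-Nd5 lay mostly at its 3′ end, directly downstream of mt-Nd6. The next minus-strand gene in that direction is mt-Ts1, beyond mt-Nd4, so no annotated minus-strand gene lies opposite mt-Nd5 except the last 14 nt of mt-Nd6. In steps of 100 nt from the end of mt-Nd6, replicate 1 held 12, 9, 18 and 2 cDNAs and replicate 2 held 15, 31, 29 and 7 in the first 4 steps. These 4 of 18 steps held 56.2% (44.8% to 67.0%) and 55.0% (47.0% to 62.8%) of the minus-strand cDNAs on 22.2% of the length. In the other libraries it was 54.3% (44.8% to 63.5%). Their level was 126 and 91.0 CPM per kb, beside 149 and 119 in mt-Nd6 itself. In the 14 later steps it was 28.0 and 21.2, and opposite mt-Nd1, mt-Nd2 and mt-Cytb it was 0.855 to 5.91.

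The decline along the minus strand was uneven. The fourth step had 24.5 and 31.1 CPM per kb, below the 85.8 and 53.2 of the fifth, and the last step, opposite the 5′ end of mt-Nd5, had 36.8 and 48.8. These values rest on few cDNAs, 2 and 7, 7 and 12, and 3 and 11 in replicates 1 and 2. Differences between steps were not tested. Copied positions were 16.3% of the first 4 steps and 17.8% of the later ones. The fourth step had 36 copied positions and the fifth 66. Altogether mt-Nd6 held 31.0% and 31.6% of all mitochondrial minus-strand cDNAs of the replicates. The stretch opposite mt-Nd5 held 36.0% and 34.1%, on 1810 nt beside the 519 nt of mt-Nd6.

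The plus strand opposite mt-Nd6 was covered as densely as mt-Nd5. From the nucleotide after mt-Nd5 to the 5′ end of mt-Nd6 (M, 13566 to 14070, 505 nt) there were 139 and 395 plus-strand cDNAs, 338 and 347 CPM per kb, beside 318 and 320 in mt-Nd5 and 226 and 206 in mt-Cytb. No plus-strand gene is annotated in this stretch. The annotation ends mt-Nd5 with its coding sequence, and whether the mt-Nd5 RNA itself runs on through the stretch was not tested. Over the mt-Nd6 gene the opposite strand thus held 69.1% of the cDNAs in replicate 1 (62.5% to 75.1%) and 74.3% in replicate 2 (70.4% to 77.8%). In the other libraries it held 56.4% (48.6% to 63.9%).

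Within that stretch the signal peaked and then fell before mt-Cytb. In steps of 100 nt the CPM per kb were 454, 687, 319, 172 and 73.6 for replicate 1 and 444, 803, 311, 142 and 53.2 for replicate 2. The other libraries had 193, 281, 167, 105 and 17.6. The second step (13666 to 13765) was more than 2 times the level of mt-Nd5 as a whole in both replicates. In the other libraries it was 281 beside 173. The first 100 nt of mt-Nd5 had similar values to this step, 625 and 830 in the replicates. Position 13663, at the end of the first step, held 3 and 10 cDNAs and is the centre of the plus-strand sequence shown above for this stretch. The 74 nt between this stretch and mt-Cytb had 82.9 and 102 CPM per kb, from 5 and 17 cDNAs, and the first 100 nt of mt-Cytb 61.3 and 133. Both replicates were thus lower just before mt-Cytb than over mt-Nd5 as a whole or the rest of mt-Cytb.

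**Figure D4:**
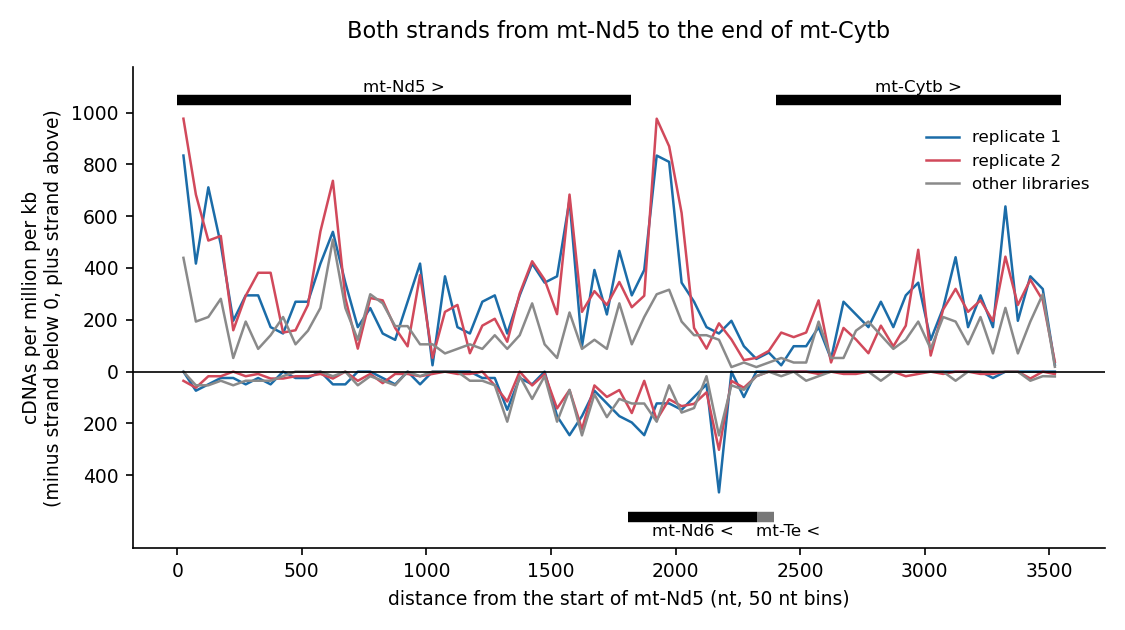
CPM per kb in 50 nt bins on the plus strand (above 0) and the minus strand (drawn below 0) against the distance from the start of mt-Nd5, for replicate 1, replicate 2 and the other libraries. Bars mark the annotated genes and arrowheads their direction. Plus-strand signal runs past the end of mt-Nd5 opposite mt-Nd6, and minus-strand signal runs past the end of mt-Nd6 opposite the last part of mt-Nd5, where 4 steps of 100 nt held 56.2% and 55.0% of it.

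The positions were richer in uridine and poorer in guanosine than the genes. At mt-Nd1 42.1% of the positions were uridine in both replicates, against 30.1% of the gene. At mt-Nd2 it was 38.5% and 36.0% against 27.4%, at mt-Nd5 44.1% and 39.1% against 28.6%, and at mt-Cytb 45.0% and 45.0% against 29.2%. The uridine-rich mt-Nd6 had 62.5% and 58.7% against 43.7%. Guanosine was at 2.63% and 6.06% of the mt-Nd1 positions, against 11.6% of the gene, and at 16.1% and 24.0% of the mt-Nd6 positions, against 28.1%. The other libraries gave 40.5% to 46.7% uridine on the 4 plus-strand genes and 59% on mt-Nd6.

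The same uridine share served to check the numbering, so it is no separate measure of preference. For the 4 plus-strand genes it was highest at a shift of 0 nt among 101 shifts of up to 50 nt in both replicates, 42.5% and 40.0% against 42.2% and 37.8% at the next best shift and a median of 28.8%. For mt-Nd6 it was highest at 0 in replicate 2, and in replicate 1, with 56 positions, a shift of 1 nt gave 69.6%. UV light at 254 nm crosslinks uridine readily, as is known of the method. Of the 15 strongest positions, 3 per gene, 14 were uridine and 1 was adenosine. They were picked by count, and neighbouring nucleotides can share a site.

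**Figure D5:**
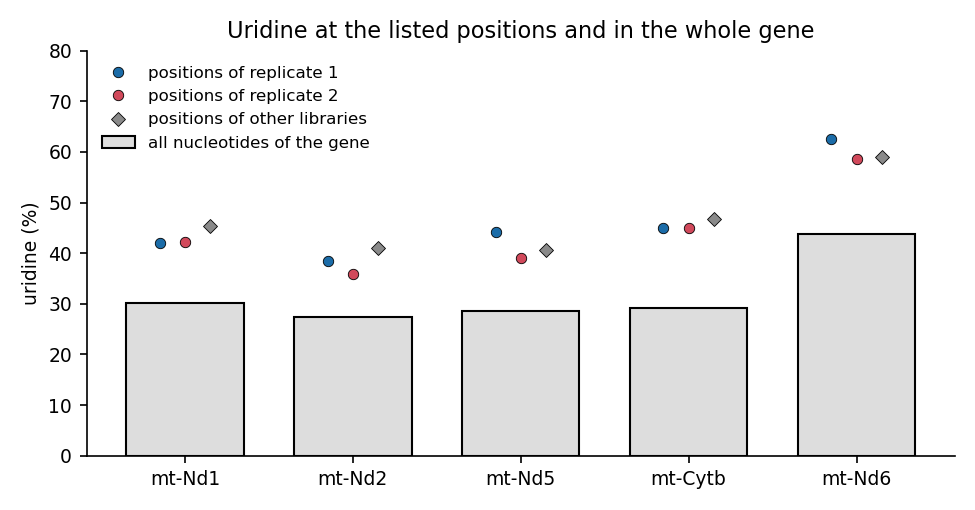
Percent uridine (vertical axis) among all nucleotides of each gene (bars) and among the positions listed in replicate 1, replicate 2 (circles) and the other libraries (diamonds). Every set of positions lies above its gene, by 8.61 to 18.8 percentage points in the replicates.

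Positions were spread over all 3 bases of the codon. In replicate 2 the shares on the first, middle and last base of a codon were 34.6%, 34.2% and 31.2% at mt-Nd5 and 32.1%, 34.4% and 33.5% at mt-Nd2. The middle base was uridine in 42.9% of mt-Nd5 codons, against 23.2% for the first and 19.6% for the last. At mt-Nd1 replicate 1 had 26.3% of its 152 positions on the middle base and replicate 2 had 37.3% of its 330. The motif CNNC, which has been linked to SRSF3, was searched on the RNA strand in the 41 nt around the 15 strongest positions. It was present in 12 of the 15 and in 84.4% of all 41 nt windows of the 5 mRNAs. A motif that most windows hold leaves little room for a difference. The other motif linked to SRSF3, a run of 5 bases made of A or T, then C, then A or T, again A or T, and C, was present in 9 of the 15 and in 47.9% of all windows. These shares are descriptions, and no difference was tested.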

How the data were processed

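Per the file headers, the authors deposited for each track a signed score per nucleotide, the number of cDNA hits on mm9 with annotation Ensembl 59, whose sign gives the strand. The scores are not scaled. Bowtie 0.10.1 is the aligner named in the submitters' processing notes. How duplicate cDNAs and reads with several matches were handled is not given in those sources. Gene limits came from GENCODE M21 on GRCm38. The mitochondrial numbering was checked on the data. Copies were 30 nt following a position that matched a nuclear GENCODE transcript without mismatch on either strand, so copies outside transcripts are missed.

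Replicates were compared with two-sided exact binomial tests against the library totals (gene strands with at least 10 cDNAs, 100 nt bins of the whole genome with at least 20), chi-square tests of 50 nt bins merged to an expected count of 5, and Fisher's exact tests, each with Benjamini-Hochberg adjustment at 5% (Python 3.11.15, scipy 1.17.1). The 100 nt bin test and the chi-square profile test were tried on simulated counts with counting error only. Fisher's exact tests were not. The named positions are the 3 per gene with the highest CPM in the lower replicate. The members, lists and stretches were chosen with earlier results of these data known. A count of 0 allows up to 3 cDNAs, 3.68 CPM in replicate 1 and 1.33 in replicate 2.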

Additional observations from a re-analysis of the deposited data

Results flagged for a closer look

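The merged track held 1025 sense cDNAs on the 5 mRNAs beyond those of the 2 replicates, a signal outside the libraries that were compared. Opposite mt-Nd5 it held 105 further minus-strand cDNAs. Both are above the 3 cDNAs that a count of 0 allows, and no control library was analysed here.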

How the results depend on the processing

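No paired analysis was possible because only the 2 iCLIP replicates, 1 group, were compared. Counting each covered position once lowered the levels to 174 CPM per kb at mt-Nd1, 239 at mt-Nd2, 210 at mt-Nd5, 162 at mt-Cytb, 111 at mt-Nd6 and 208 opposite mt-Nd6, with the order of the 5 mRNAs kept. It gave antisense shares of 1.83% at mt-Nd1, 15.0% at mt-Nd5 and 65.1% at mt-Nd6, put 38.0% of mt-Nd1, 58.9% of mt-Nd2, 40.1% of mt-Cytb and 37.1% of mt-Nd6 in the 5′ part up to the midpoint, and called 0 gene profiles. Without copied positions levels were 455 at mt-Nd2 and 368 at mt-Nd5. The same choice, added for 2 further results after the data were seen, gave 357 opposite mt-Nd6 and put 65.5% of mt-Nd2 and 36.9% of mt-Cytb in the 5′ part. mt-Nd5 was 321 without mitochondrial cDNAs in the total and 316 without its strongest position. Bins of 25 nt called 2 gene profiles, with none of the 5 mRNAs among them, and bins of 200 nt called 1 stretch, described above. Copied shares with 25 and 50 nt were 17.8% and 7.80% at mt-Nd2, 21.1% and 7.40% at mt-Nd5, 14.9% and 0.350% at mt-Cytb, and 14.3% and 0% at mt-Nd6. All 33 alternatives of a replicate ratio or profile test of a single mRNA left its call as it was. The alternatives of the ratio could hardly change a call. A minimum of 1 cDNA left each ratio unchanged, and the total without mitochondrial cDNAs barely moved it (mt-Nd1 sense -0.1705 and -0.1686). The causes of these changes were not tested.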
